A study of Mus musculus with 8 samples.

Results

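The primitive streak factors are 8 transcription factor genes that mark the start of gastrulation: T, Eomes, Mixl1, Mesp1, Gsc, Evx1, Tbx6 and Cdx1. They were chosen by name for this role, by a rule that uses no measured value, although earlier results of these data were known, and were found through their Ensembl identifiers among the 52636 gene identifiers of the count table. RNA was sequenced in 8 libraries of mouse epiblast from embryonic day 5.5, before a streak is visible. Every embryo, controls included, had the genotype Sox2Cre;CRAFR26: a Cre recombinase active in the epiblast, with a construct that lets 4-hydroxytamoxifen (4OHT) switch on cRAF and so the kinase ERK. The line came from embryonic stem cells injected into morulae, and 2 clones of it, clone 4 and clone 8, were used. In each clone, embryos were kept in IVC2 medium with ethanol vehicle or with 250 nM 4OHT for 4 h, the extraembryonic layers were cut away, and 2 libraries were made per condition, each from 7 ng of RNA of 10 pooled epiblasts. The vehicle libraries carry a time of 0 h beside a 4 h vehicle treatment, and if they were collected uncultured, culture and 4OHT cannot be told apart. The labels do not say whether the pools came from separate litters, so p-values measure the spread between these pools only.

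The primitive streak forms at the posterior side of the epiblast, where Nodal, BMP and WNT signals switch on these factors in cells that leave the epithelium and become mesoderm or endoderm. FGF signals, which act through ERK, are needed for that exit and for the expression of T and Tbx6. Eomes, T and Mixl1 come on early, Gsc marks the anterior streak and organizer, Mesp1 marks the earliest mesoderm, and Evx1, Tbx6 and Cdx1 mark posterior streak and paraxial mesoderm. Some of them are not particular to the streak. Eomes is also made in extraembryonic ectoderm and visceral endoderm, and Gsc and Mixl1 are also made in visceral endoderm, all of them tissues that surround or cap the epiblast at this stage.

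By the GENCODE annotation of the mm10 build, T lies at chr17:8434423-8442496 on the plus strand, Eomes at chr9:118478212-118486132 (plus), Mixl1 at chr1:180693043-180697034 (minus) and Mesp1 at chr7:79792241-79793788 (minus). Gsc lies at chr12:104471209-104473330 (minus), Evx1 at chr6:52313498-52318378 (plus) and Tbx6 at chr7:126781483-126785560 (plus). All 8 are protein-coding genes. Exons of Eomes overlap the antisense gene Gm33460 over 118 bases (2.84% of its exonic length), and those of Evx1 overlap Evx1os over 73 bases (2.54%). The use of strand in counting is not given in the sources used here, so reads of these pairs in the shared bases cannot be told apart. Evx1os itself held 165 to 426 counts per library.

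T, Eomes and Tbx6 encode T-box proteins, and the half-site that such proteins bind in DNA has the core AGGTGT, which was searched on both strands. The bases before the RefSeq start (GRCm38.p6) are shown for T and Evx1, which hold this core there, and for Eomes, which does not, so that a factor of the family can be set beside other members. Capitals mark the core, and each sequence reads 5′ to 3′ in the direction of the gene. The T sequence is chr17:8434173-8434422 (plus), that of Evx1 is chr6:52313248-52313497 (plus) and that of Eomes is chr9:118477939-118478188 (plus).
T: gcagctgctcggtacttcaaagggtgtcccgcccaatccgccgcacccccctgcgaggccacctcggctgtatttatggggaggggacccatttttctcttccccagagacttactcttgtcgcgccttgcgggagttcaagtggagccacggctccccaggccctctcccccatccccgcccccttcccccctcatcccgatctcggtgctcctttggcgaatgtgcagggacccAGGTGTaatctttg
Evx1: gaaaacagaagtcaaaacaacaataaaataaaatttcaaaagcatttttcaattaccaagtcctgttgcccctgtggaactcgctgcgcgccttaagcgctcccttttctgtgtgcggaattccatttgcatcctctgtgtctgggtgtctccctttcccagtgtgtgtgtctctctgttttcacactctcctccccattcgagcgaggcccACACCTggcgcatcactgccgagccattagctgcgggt
Eomes: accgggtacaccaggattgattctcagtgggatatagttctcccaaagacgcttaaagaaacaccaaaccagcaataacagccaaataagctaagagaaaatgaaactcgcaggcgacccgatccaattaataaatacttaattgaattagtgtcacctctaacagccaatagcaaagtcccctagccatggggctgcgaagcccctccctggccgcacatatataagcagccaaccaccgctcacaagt
Mesp1 held the core at 2 places, shown as 30-base windows at chr7:79793806-79793835 and chr7:79793566-79793595, both on the minus strand.
Mesp1 before the start: cctaataaatgaAGGTGTaccctaagccta
Mesp1 after the start: ggggcccgcttcACACCTagggctcaggat
The matches begin 14 bases before the start in T, 38 before it in Evx1, and 233 before and 8 after it in Mesp1. A promoter window was on hand for 6 of the 8 genes (T, Eomes, Mesp1, Gsc, Evx1 and Tbx6). In the 250 bases before the start, the core occurred on either strand in 3 of these 6 windows and in 11.8% of 32851 windows of mouse genes. Of the other motifs searched on both strands, TATAAA occurred before Gsc and Tbx6 (12.4% of all windows) and CTTTGA, the core that TCF and LEF factors bind, before T and Mesp1 (13.8%). For Mesp1 the GENCODE gene begins upstream of the RefSeq start, at chr7:79793788 on the minus strand. Its CTTTGA matches, at -31 and -72 from the RefSeq start, thus lie inside the GENCODE gene. CCGGAA, the core of ETS sites, and TGTGNATT, a site of the Nodal cofactor Foxh1, occurred in 0 of the 6 (12.03% and 3.18% of all windows). The motifs were picked after the sequences had been read, and a match describes letters only.

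The libraries held 33341813 to 37960284 counts in vehicle and 56384556 to 72497719 after 4OHT, and levels are given as counts per mega-count (CPM) of the library total scaled by TMM, a method that takes most genes as unchanged. A total of 18321 genes, all 8 factors among them, had enough counts to be tested. Esr1, the estrogen receptor gene whose ligand-binding part serves in 4OHT-inducible fusions, stood at 0.187 to 0.723 CPM in vehicle and 5.92 to 6.76 CPM after 4OHT. Egr1, an immediate early ERK target, stood at 5.77 to 18.2 CPM in vehicle and 55.4 to 379 CPM after 4OHT, with the 379 CPM in 4OHT clone 8 replicate 2. It is 1 of 14 listed ERK targets, which were less uniform. In clone 4, 11 were fitted higher and 3 lower (Fos at -0.66), with a median of 0.16. There 0 were called by edgeR (4 at an unadjusted p under 0.05, 2 by DESeq2). In clone 8, 13 were fitted higher and 1 lower. There edgeR called 6 higher and 1 lower (Spred1), where 16.6% of all genes were called. The 10 epiblast markers, none of them at 0, summed to 6190 to 6930 CPM in vehicle and 5600 to 6110 CPM after 4OHT. Of these, 9 of 10 were fitted lower in each clone, with 0 called by edgeR in clone 4 (4 at an unadjusted p under 0.05, 1 by DESeq2), and in clone 8 Pou5f1, Sox2, Pou3f1 and Utf1 were called lower and Cdh1 higher. Markers of the dissected layers were present in every library, at 1190 to 5170 CPM for 15 visceral endoderm genes and 344 to 1030 CPM for 12 extraembryonic ectoderm genes, none of them at 0.

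Per exonic length, in RPKM (CPM per kilobase), the factors ranged from well expressed to barely detected. Mixl1 was at 14 ± 8.67 RPKM (SD, n = 8 libraries), Eomes at 10.2 ± 1.92, T at 4.31 ± 5.28, Gsc at 3.61 ± 1.45 and Evx1 at 1.41 ± 0.563. Mesp1 (0.457 ± 0.881 RPKM), Cdx1 (0.181 ± 0.104) and Tbx6 (0.156 ± 0.125) were the lowest. Mixl1 stood at the 79.6th percentile of the tested genes and Tbx6 at the 15.4th. Neighbours in this order overlapped in range throughout. Mixl1 was above Eomes in 6 of 8 libraries, Eomes above T in 7, T above Gsc in 2, Gsc above Evx1 in 7, Evx1 above Mesp1 in 8, Mesp1 above Cdx1 in 3 and Cdx1 above Tbx6 in 5. The mean therefore places T above Gsc although most libraries had them the other way round, since T was very high in 4OHT clone 8 replicate 2.

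**Figure D1:**
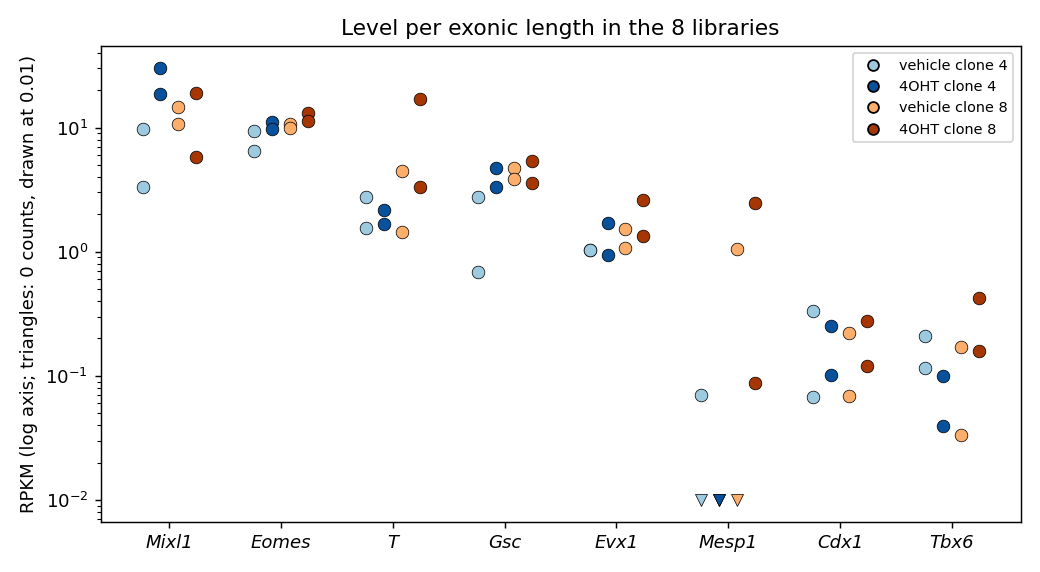
Level of each factor per exonic length (RPKM, log axis) in the 8 libraries, coloured by group, with libraries at 0 counts drawn as triangles at the foot of the axis. Mixl1 and Eomes sit at 3.31 RPKM or more in every library, while Tbx6 and Cdx1 stay below 0.5 RPKM and Mesp1 runs from 0 to 2.45 RPKM.

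In edgeR's quasi-likelihood test, 0 of 8 factors were called at an adjusted p under 0.05 in clone 4, in clone 8, in the difference between the clones' responses, over both clones or between the clones in vehicle. At an unadjusted p under 0.05 there was 1 factor in clone 4 (Mixl1), 1 in clone 8 (T), 1 in the difference (Mixl1), 0 over both clones and 1 in vehicle (Gsc), and DESeq2 called 1, Gsc in vehicle. All adjusted p-values given for the factors are from edgeR's quasi-likelihood test with Benjamini-Hochberg adjustment over the 18321 genes. Of all genes, 0.0382% were called in clone 4, 16.6% in clone 8, 2.83% in the difference, 0.00546% over both clones and 8.37% between the clones in vehicle. At an unadjusted p under 0.05 the shares of all genes were 9.9%, 33.2%, 22.7%, 16.9% and 25.7%. The median fitted log2 fold change of the 7 factors other than Mesp1, which had at most 3 counts in every clone 4 library, was 0.35 in clone 4 and 0.43 in clone 8, against medians of -0.005 and 0.07 over all tested genes. Over both clones, 8 of 8 fitted values were above 0 with TMM, RLE size factors or library totals, with a median of 0.45 against 0.04 for all genes, of which 54.2% were above 0, but that of Mesp1 was -1.55 by DESeq2. Library totals in place of TMM moved the median of all genes by 0.12 in clone 8 and by 0.11 in the difference.

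**Figure D2:**
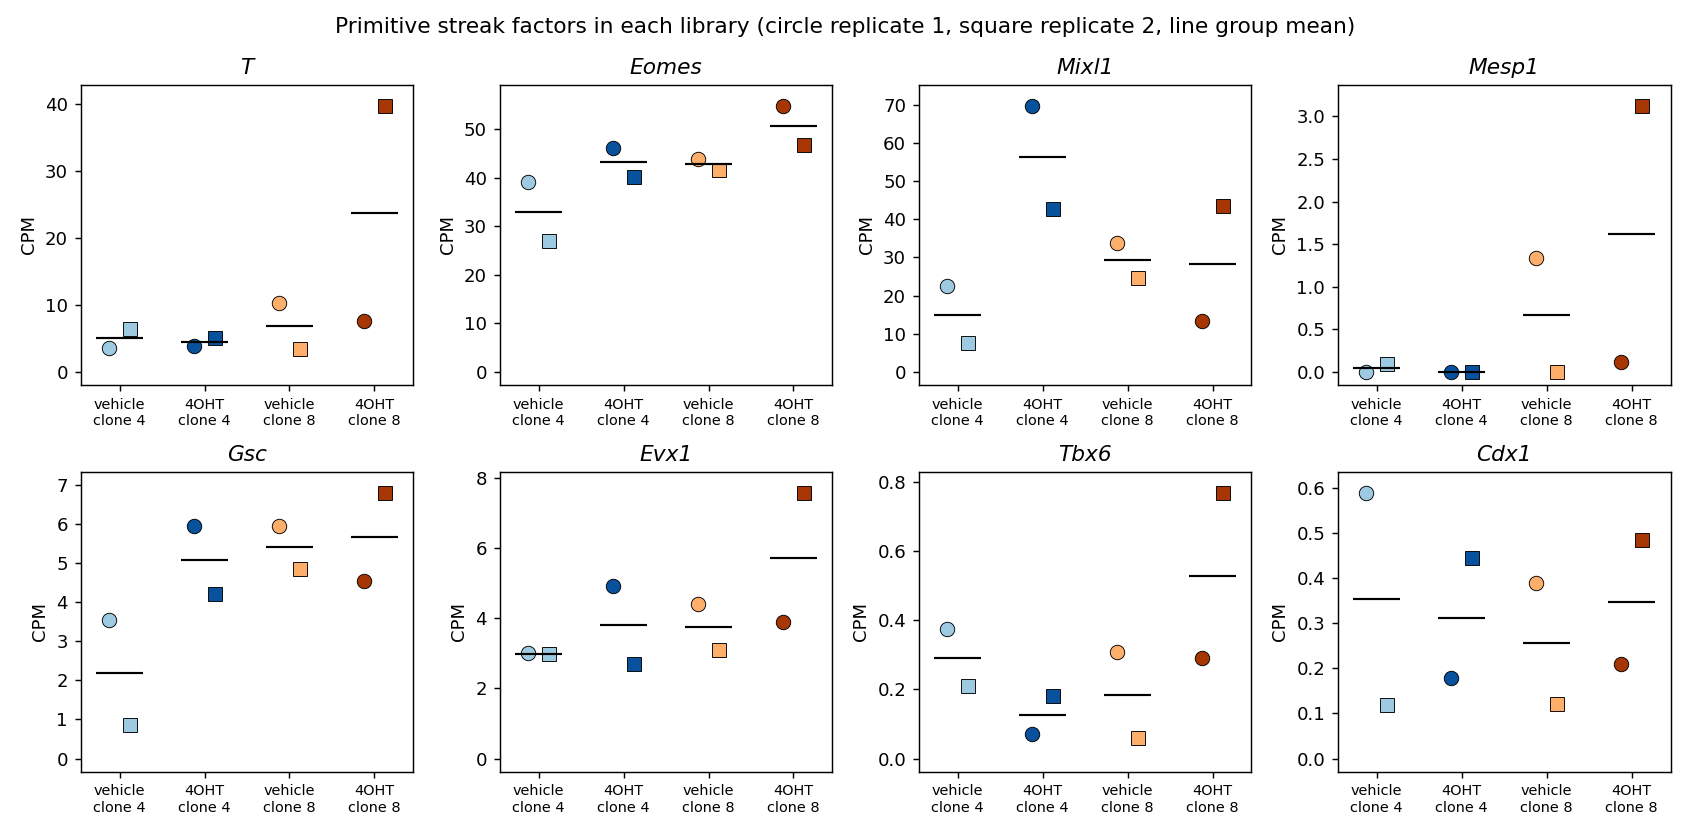
CPM of each factor in each library, grouped by clone and condition (circles, replicate 1; squares, replicate 2; lines, group means of 2 libraries). T, Mesp1, Gsc, Evx1 and Tbx6 are highest in 4OHT clone 8 replicate 2, while Eomes stays within 26.9 to 54.7 CPM throughout.

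T (brachyury, ENSMUSG00000062327), the T-box factor of nascent mesoderm, stood at 3.61 and 6.43 CPM in vehicle and 3.86 and 4.99 CPM after 4OHT in clone 4. In clone 8 it stood at 10.3 and 3.34 CPM in vehicle and 7.64 and 39.7 CPM after 4OHT. All libraries but that of 39.7 CPM lay within 3.34 to 10.3 CPM, and the groups overlapped in both clones. The log2 fold change was -0.18 (SE 0.72, adjusted p 0.97) in clone 4 and 1.79 (SE 0.72, adjusted p 0.117) in clone 8, and their difference of 1.97 (SE 1.01, adjusted p 0.28) did not pass the threshold. The clone 8 value rested on a single library: without 4OHT clone 8 replicate 2 it was 0.16 (adjusted p 0.871), and without 4OHT clone 8 replicate 1 it was 2.54 and passed (adjusted p 0.0161). It also passed when no expression filter was used (1.83, adjusted p 3.25e-08), the lowest of 17 alternatives whose adjusted p-values ran up to 0.871. The Poisson 95% interval of the 39.7 CPM, from 2377 counts, was 38.1 to 41.3 CPM, and that of its replicate was 6.97 to 8.36 CPM, so these pools differed by more than counting error.

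Eomes (ENSMUSG00000032446), a T-box factor needed for endoderm and for mesoderm to leave the epiblast, was the steadiest of the 8. In clone 4 it stood at 39.0 and 26.9 CPM in vehicle and at 46.1 and 40.1 CPM after 4OHT. In clone 8 the values were 43.9 and 41.5 CPM in vehicle and 54.7 and 46.7 CPM after 4OHT. Eomes was the only factor whose 4OHT libraries lay above the vehicle libraries of their own clone in both clones, although the 4 and 4 libraries overlapped across clones. Of all tested genes, 23.7% were so placed in clone 4 and 31.7% in clone 8, and the share in both clones was not counted. The log2 fold changes were small, at 0.39 (SE 0.19, adjusted p 0.577) in clone 4 and 0.25 (SE 0.19, adjusted p 0.405) in clone 8. Over both clones the value was 0.32 (SE 0.15, adjusted p 0.305), from 37.8 ± 7.56 CPM in vehicle to 46.9 ± 6.02 CPM after 4OHT (SD, n = 4 each). It stayed between 0.19 and 0.40 under 18 alternatives, but the clone 4 value was 0.14 without vehicle replicate 2 and 0.68 without vehicle replicate 1, and the clone 8 value was 0.13 without 4OHT replicate 1.

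Mixl1 (ENSMUSG00000026497), a homeobox factor of the streak and of endoderm, stood at 22.4 and 7.59 CPM in vehicle and 69.7 and 42.8 CPM after 4OHT in clone 4. In clone 8 the vehicle libraries were at 33.8 and 24.6 CPM and the 4OHT libraries at 13.2 and 43.6 CPM. In clone 4 the 4OHT libraries were thus above both controls, and in clone 8 they lay on either side of them. The log2 fold change was 1.90 (SE 0.60, adjusted p 0.30) in clone 4 and -0.04 (SE 0.58, adjusted p 0.968) in clone 8, with a difference of -1.95 (SE 0.82, adjusted p 0.203). In clone 4 the value was 2.89 without vehicle replicate 1 and 1.33 without vehicle replicate 2. The value for clone 8 turned with the library left out, from -1.15 without 4OHT replicate 2 to 0.58 without 4OHT replicate 1, and was 0.074 with library totals. The difference passed without 4OHT clone 8 replicate 2 (-3.05, adjusted p 0.0438) and without an expression filter (-1.93, adjusted p 1.13e-08), in 2 of 16 alternatives whose adjusted p-values ran up to 0.447. Without that filter the clone 4 value passed too (1.92, adjusted p 1.6e-16), as 1 of 17 alternatives that ran up to an adjusted p of 1.

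Gsc (goosecoid, ENSMUSG00000021095), a homeobox repressor of the organizer, showed a similar layout at lower levels. Its vehicle libraries in clone 4 were at 3.53 and 0.863 CPM and its 4OHT libraries at 5.94 and 4.2 CPM. In clone 8 it was at 5.94 and 4.85 CPM in vehicle and 4.54 and 6.79 CPM after 4OHT. Vehicle clone 4 replicate 2 was the low library, and the other 7 lay within 3.53 to 6.79 CPM. The log2 fold change was 1.2 (SE 0.54, adjusted p 0.51) in clone 4 and 0.07 (SE 0.52, adjusted p 0.939) in clone 8. In clone 4 it was 2.55 without vehicle replicate 1 and 0.52 without vehicle replicate 2. It passed there without an expression filter (1.21, adjusted p 0.0389), as 1 of 17 alternatives that ran up to an adjusted p of 1.

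Evx1 (ENSMUSG00000005503), a homeobox factor graded along the posterior streak, stood at 3 and 2.98 CPM in vehicle and 4.93 and 2.70 CPM after 4OHT in clone 4. The clone 8 values were 4.4 and 3.10 CPM in vehicle and 3.88 and 7.57 CPM after 4OHT. The highest library was again 4OHT clone 8 replicate 2, and the groups overlapped in both clones. The log2 fold change was 0.35 (SE 0.41, adjusted p 0.856) in clone 4 and 0.61 (SE 0.41, adjusted p 0.33) in clone 8. Without 4OHT clone 8 replicate 2 the latter was 0.05.

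Mesp1 (ENSMUSG00000030544), the basic helix-loop-helix factor of the earliest cardiac and cranial mesoderm, was present in some pools and missing from others. Its counts were 0 and 3 in vehicle clone 4, and 0 and 0 in 4OHT clone 4. A count of 0 allows up to 0.0803 CPM in vehicle clone 4 replicate 1, and 0.0538 and 0.0417 CPM in the 4OHT libraries, where the limit is 3 counts and covers counting error only. In clone 8 the counts were 48 and 0 in vehicle and 7 and 187 after 4OHT, which are 1.34, 0, 0.112 and 3.12 CPM. The libraries with Mesp1 above 0.2 CPM were thus a vehicle and a 4OHT library, each beside a replicate near 0. No fold change is given for clone 4 or between the clones, since clone 4 was at or under 3 counts. The fitted log2 fold change for clone 8 was 1.26 with an SE of 1.67 (adjusted p 0.644), and it was -2.55 without 4OHT replicate 2.

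Tbx6 (ENSMUSG00000030699), the T-box factor of paraxial mesoderm, and Cdx1 (ENSMUSG00000024619), a caudal-type homeobox factor of the posterior body, were both under 1 CPM in every library. Tbx6 had 14 and 7 counts in vehicle clone 4, 4 and 13 in 4OHT clone 4, 11 and 2 in vehicle clone 8, and 18 and 46 in 4OHT clone 8. In CPM these were 0.375 and 0.208, 0.0717 and 0.181, 0.307 and 0.0603, and 0.289 and 0.767. The 4OHT libraries lay below the controls in clone 4 and overlapped them in clone 8. In clone 4 the 95% Poisson interval of the 0.181 CPM, 0.0962 to 0.309, overlapped that of the 0.208 CPM, 0.0838 to 0.429. Its fitted log2 change was -1.18 (SE 0.998, adjusted p 0.787) in clone 4 and 1.50 (SE 0.99, adjusted p 0.324) in clone 8, and the difference was 2.68 (SE 1.41, adjusted p 0.291). Leaving out 1 library moved the clone 4 value to between -1.99 (without 4OHT replicate 2) and -0.69 (without 4OHT replicate 1), with -0.70 without vehicle replicate 1. The clone 8 value was 0.63 without 4OHT replicate 2 and 0.75 without vehicle replicate 2. Cdx1 stood at 0.589 and 0.119 CPM in vehicle and 0.179 and 0.445 CPM after 4OHT in clone 4, from 4 to 32 counts. In clone 8 it stood at 0.390 and 0.121 CPM in vehicle and 0.209 and 0.484 CPM after 4OHT. Its replicates differed by more than its groups did, with log2 fold changes of -0.18 (SE 0.99, adjusted p 0.979) and 0.43 (SE 1.01, adjusted p 0.803).

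**Figure D3:**
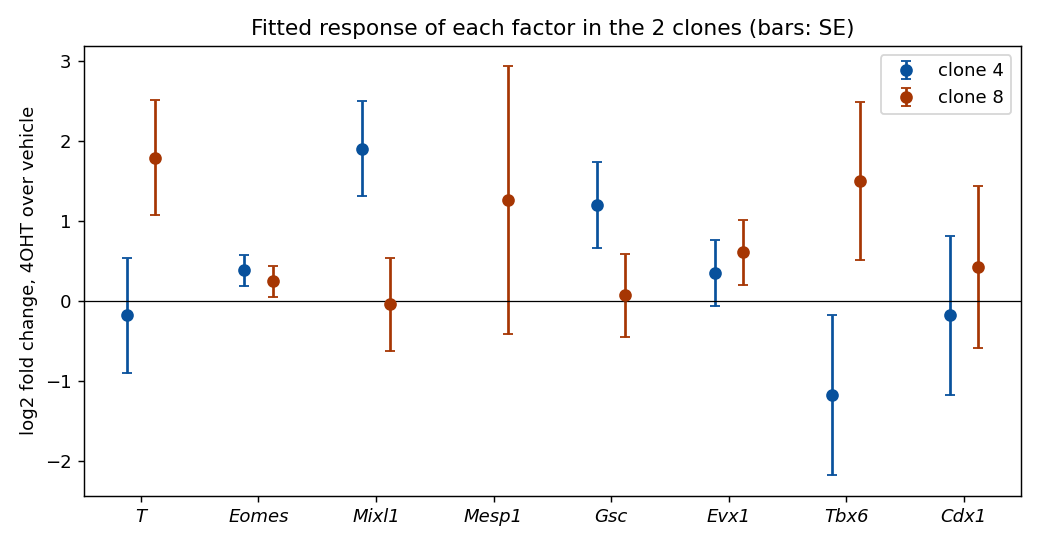
Fitted log2 fold change of 4OHT over vehicle for each factor in clone 4 (blue) and clone 8 (red), with bars of 1 SE; Mesp1 has no value in clone 4, where it was at or under 3 counts. Mixl1 and Gsc are fitted higher in clone 4 (1.90 and 1.2) and T and Tbx6 in clone 8 (1.79 and 1.50), while Eomes is near 0.3 in both.

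Counted by overlap alone, Eomes, Mixl1 and Gsc had both 4OHT libraries above both vehicle libraries in clone 4, as did 23.7% of all tested genes, and Tbx6 had both below, as did 23.8%. For Tbx6 the nearest of these libraries, with 13 and 7 counts, lay within counting error of each other. In clone 8 the groups separated for Eomes alone on the higher side (31.7% of all genes) and for 0 factors on the lower side (28.3%). Across the 4 and 4 libraries, 0 of 8 factors separated, against 3.42% of genes higher and 5.58% lower. Between the vehicle libraries, Eomes, Mixl1, Gsc and Evx1 were higher in clone 8 without overlap (29.7% of all genes), and 0 were lower (29.2%). The largest of those fitted differences were 1.29 for Gsc (SE 0.54, adjusted p 0.17) and 0.96 for Mixl1 (SE 0.59, adjusted p 0.355). Without vehicle clone 4 replicate 1 they were 2.66 and 1.97, and without vehicle clone 4 replicate 2 they were 0.63 and 0.40. DESeq2 called Gsc there (1.31, adjusted p 0.0489), and over 16 alternatives its adjusted p ran from 0.00884 to 0.527. The spread inside a group was often as wide as these shifts: the higher replicate of 4OHT clone 8 exceeded the lower by 5.19-fold for T, 3.31-fold for Mixl1 and 27.8-fold for Mesp1, but by 1.17-fold for Eomes.

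Within clone 8, 5 of the 8 factors shared an order of libraries. T, Mesp1, Evx1, Tbx6 and Cdx1 ran, from lowest to highest CPM, through vehicle replicate 2, 4OHT replicate 1, vehicle replicate 1 and 4OHT replicate 2. This order was picked after the values had been seen and also occurred in 2.11% of all tested genes. It alternates between the conditions. Eomes, Mixl1 and Gsc did not follow it. Some of its steps lay within counting error, by 95% Poisson intervals. From 4OHT replicate 1 to vehicle replicate 1, Tbx6 went from 0.289 CPM (0.171 to 0.457) to 0.307 CPM (0.153 to 0.549). Evx1 went from 3.88 CPM (3.41 to 4.4) to 4.4 CPM (3.74 to 5.15). From vehicle replicate 2 to 4OHT replicate 1, Cdx1 went from 4 to 13 counts and Mesp1 from 0 to 7, also with overlapping intervals. Over all 8 libraries, 5 of the 8 factors were highest in 4OHT clone 8 replicate 2, the library with the most Egr1, as were 15.6% of all tested genes. In these bulk pools, more cells of a type and more RNA per cell cannot be told apart.

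Markers of the visceral endoderm, where Mixl1 and Gsc are also made, differed widely between libraries. The 15 genes summed to 1980 and 1660 CPM in vehicle clone 4, 4430 and 5170 CPM in 4OHT clone 4, 3720 and 3510 CPM in vehicle clone 8, and 1190 and 2610 CPM in 4OHT clone 8. In clone 4, 15 of the 15 were fitted higher after 4OHT with a median of 1.72, and 0 were called by edgeR (12 at an unadjusted p under 0.05, 7 by DESeq2). In clone 8, 14 of 15 were fitted lower with a median of -0.96, and 5 were called lower. The lowest Mixl1 values, 7.59 and 13.2 CPM, were in the libraries with the least of these markers, and the highest, 69.7 CPM, was at a sum of 4430 CPM. Between them the order broke down: Mixl1 was at 43.6 CPM at a sum of 2610 CPM, above its 33.8 and 24.6 CPM at 3720 and 3510 CPM and its 42.8 CPM at 5170 CPM. Gsc was lowest in the library at 1660 CPM, but it was at 4.54 CPM in the library at 1190 CPM, highest (6.79 CPM) at 2610 CPM and at 4.2 CPM at the largest sum. The order of the lowest libraries depends on the summary. By the mean log2 of CPM plus 1, vehicle clone 4 replicate 2 (4.73) was below 4OHT clone 8 replicate 1 (4.85), the reverse of their sums. T did not follow the markers, with its 39.7 CPM at a marker sum of 2610 CPM. The 4 anterior visceral endoderm markers (Cer1, Hhex, Lefty1 and Dkk1) summed to 110 and 98.7 CPM in vehicle clone 4, 155 and 123 in 4OHT clone 4, 171 and 150 in vehicle clone 8, and 64.3 and 133 in 4OHT clone 8. The part of these tissues in the levels of Mixl1, Gsc and Eomes was not tested.

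**Figure D4:**
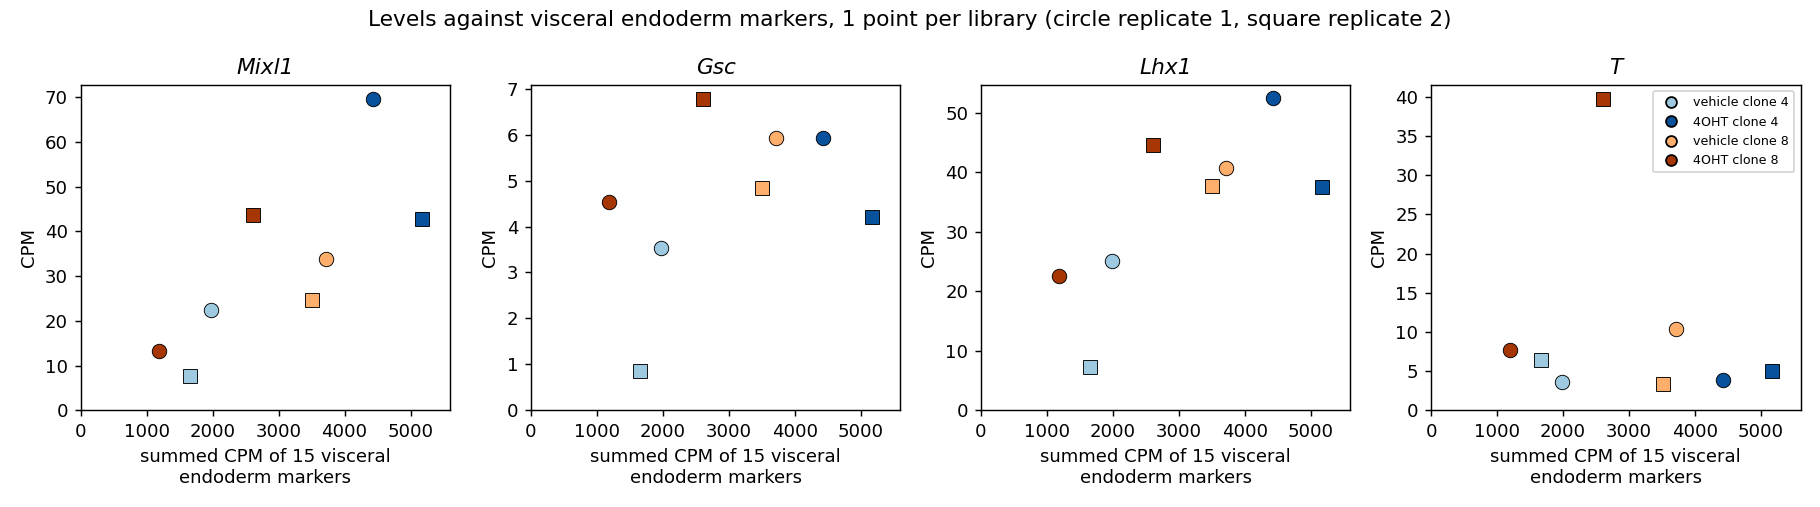
CPM of Mixl1, Gsc, Lhx1 and T against the summed CPM of 15 visceral endoderm markers, 1 point per library, coloured by group. Mixl1 is at 7.59 CPM at a marker sum of 1660, 43.6 CPM at 2610, 69.7 CPM at 4430 and 42.8 CPM at 5170, while the 39.7 CPM of T lies at a sum of 2610.

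The extraembryonic ectoderm, where Eomes is also made, summed to 1030 and 663 CPM in vehicle clone 4 and 778 and 794 CPM in 4OHT clone 4. In clone 8 it went from 344 and 421 CPM in vehicle to 745 and 817 CPM after 4OHT, and 8 of its 12 markers were called higher there, where 16.6% of all genes were called in either direction. Across the clones, Eomes was not lowest where these markers were lowest: it stood at 43.9 and 41.5 CPM in vehicle clone 8 and at 26.9 CPM in vehicle clone 4 replicate 2. Within clone 8 both were higher after 4OHT, with Eomes at 54.7 and 46.7 CPM. Within clone 4, Eomes was lowest in the library at 663 CPM of these markers. It was at 39.0 CPM at a sum of 1030 CPM, and at 46.1 and 40.1 CPM at 778 and 794 CPM. The part of this tissue in the level of Eomes was not tested.

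The tested genes nearest to each factor in pattern were found by the mean absolute difference of log2 CPM, each gene centred on its mean, over the 8 libraries and 12960 genes. Nearest to T were Nefm (0.34), Fst (0.36) and Dusp2 (0.36), where T itself departed from its mean by 0.82 on average. Nearest to Mixl1 were Foxa2 (0.20), Sowahb (0.22) and Gjb2 (0.23), against its own 0.79. Nearest to Gsc were Lhx1 (0.21), Galnt12 (0.24) and Lrrc8b (0.27), against 0.59. Eomes was nearest to Kctd3 (0.05), Rab10 (0.08) and Med14 (0.08), and Evx1 to Pnrc1 (0.13) and Nfil3 (0.14). The nearest genes were farther off for Tbx6 (Omd, 0.32) and Cdx1 (Hs3st1, 0.31), and Mesp1 had no near neighbour (Pla2g7, 1.19). Foxa2, a forkhead factor of endoderm and node, was at 6.74, 2.23, 17.7 and 11.3 CPM in clone 4 and 11.4, 12.5, 3.82 and 13.1 CPM in clone 8, in each case vehicle before 4OHT. Lhx1, a LIM homeobox factor of the organizer, was at 25.1, 7.32, 52.4 and 37.5 CPM and at 40.7, 37.6, 22.6 and 44.6 CPM in the same order. Both share with Mixl1 and Gsc the low values of vehicle clone 4 replicate 2. They were picked for the nearness of their pattern to these factors, so the shared low values are no separate support.

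Other genes of the streak and of its mesoderm and endoderm were taken from a list of 27. Of these, 21 were tested, and Msgn1, Cdx4, Noto, Foxc2, Tbx4 and Wnt3a were too low. In clone 4, 12 were fitted higher and 9 lower, with a median of 0.47. There 0 were called by edgeR (7 at an unadjusted p under 0.05, 4 by DESeq2). Among those fitted higher in clone 4, Sox17 (2.15) and Gata4 (2.51) are also on the list of visceral endoderm markers. In clone 8, 12 were again fitted higher and 9 lower, with a median of 0.10. Of the 21, 3 were called in clone 8, where 16.6% of all genes were. Hand1, a factor of extraembryonic and lateral mesoderm, rose by 2.11 on the log2 scale (adjusted p 0.0140 by edgeR), from 11.1 and 9.61 CPM to 50.6 and 39.1 CPM. Cdx2, a caudal-type factor of trophoblast and posterior body, rose by 1.65 (adjusted p 0.0108 by edgeR), from 20.6 and 26.8 CPM to 94.8 and 54.0 CPM. Both are on the list of extraembryonic ectoderm markers as well. Against vehicle clone 4, a comparison that uses the same vehicle clone 8 libraries, their log2 differences in vehicle clone 8 were -2.74 and -1.31 (adjusted p 0.0177 and 0.0293 by edgeR). Etv2, a factor of blood vessel precursors, fell by 0.95 (adjusted p 0.0397 by edgeR), from 9.17 and 6.75 CPM to 4.46 and 3.79 CPM. The response of Hand1 differed between the clones (adjusted p 0.0303 by edgeR); 11 of the 21 were at an unadjusted p under 0.05 in that difference, and DESeq2 called Hand1, Cdx2, Dll3 and Sox17. Fgf8, an FGF ligand of the streak, was at 106 and 30 CPM in vehicle clone 8 and at 17 to 28.8 CPM in the 4OHT libraries and 18.4 and 20.5 CPM in vehicle clone 4; its clone 8 value of -1.58 (SE 0.51) missed the threshold (adjusted p 0.0635 by edgeR).

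Signalling genes that act upstream of the factors were taken from a list of 25, all tested. Of these, 0 were called by edgeR in clone 4 (2 at an unadjusted p under 0.05, 1 by DESeq2), where 16 were fitted higher and 9 lower. In clone 8, 9 were fitted higher and 16 lower with a median of -0.16; 3 rose and 4 fell, where 16.6% of all genes were called. Smad3, a transducer of Nodal, rose by 1.44 on the log2 scale (adjusted p 0.00699 by edgeR), Bmp4, the BMP ligand of the extraembryonic ectoderm, by 1.62 (0.0129), and the FGF receptor Fgfr2 by 1.22 (0.0129). Smad4, the partner of all receptor SMADs, fell by 1.38 (adjusted p 0.00782 by edgeR), Tcf7l1, a WNT repressor, by 1.25 (0.00834), Furin, the convertase that activates Nodal, by 1.16 (0.0129), and the BMP receptor Bmpr1a by 0.71 (0.0324). Smad4 went from 78.6 and 58.8 CPM in vehicle clone 8 to 28.1 and 24.8 CPM, while the clone 4 libraries held 22.1 to 24 CPM in both conditions. Smad3 went from 9.64 and 9.37 CPM to 26.4 and 25.3 CPM, with 18.0 to 20.2 CPM in clone 4. Between the vehicle libraries, which shares those of clone 8, Smad4 was higher in clone 8 by 1.57 (adjusted p 0.00896 by edgeR) and Smad3 was lower (-0.95, adjusted p 0.0222). The responses of Smad3, Furin and Smad4 differed between the clones (adjusted p 0.0331, 0.0451 and 0.0357 by edgeR). Nodal and Wnt3, the ligands of the streak, are given although they were chosen after their values had been seen: in clone 8 Nodal was at 37.4 and 19.0 CPM in vehicle and 12.3 and 17.9 CPM after 4OHT, and Wnt3 at 27.9 and 12.3 CPM and then 9.85 and 8.39 CPM. Their values of -0.90 and -1.14 missed the threshold (adjusted p 0.0723 and 0.0518 by edgeR). Without vehicle clone 8 replicate 1, which leaves 1 control there, edgeR called 0 genes in clone 8, while the fitted values of these 7 genes and of Hand1, Cdx2 and Etv2 kept their direction: Smad3 was at 1.44 (adjusted p 0.0749), Smad4 at -1.17 (0.0749), Hand1 at 2.20 (0.121) and Cdx2 at 1.45 (0.106). Leaving out other single libraries of clone 8 ended the calls of Hand1 (adjusted p 0.0661) and Fgfr2 (0.0539) without vehicle replicate 2, of Etv2 (0.108) without 4OHT replicate 2, and of Bmpr1a without either (0.0595 and 0.104); Bmp4 was at 1.03 without 4OHT replicate 1.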

How the data were processed

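RNA was measured in 8 libraries. The authors deposited 1 table of raw counts per Ensembl gene, not normalized. Per the submitters' processing notes, bcl2fastq 2.19.1, STAR 2.5.3a and the mm10 build were used; the counting program, its annotation and its use of strand are not given in the sources used here. Symbols came from a table of gene names (52403 of 52636 identifiers matched; the other 233 held at most 0.0325% of a library's counts). Exonic lengths and gene positions came from GENCODE mouse release 21, and promoter windows from RefSeq.

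Genes were kept by filterByExpr (minimum count 10), library sizes were scaled by TMM, and edgeR 4.0.16 in R 4.3.3 gave two-sided quasi-likelihood tests (glmQLFit with its default, legacy on), adjusted by Benjamini-Hochberg over 18321 genes with a threshold of 0.05. A fit of the 4 groups of clone and condition gave the responses within clones, their difference and the comparison of vehicle libraries. A fit with clone and treatment as additive terms gave the response over both clones. Log2 CPM used a prior count of 2, and intervals of counts are 95% Poisson intervals, which cover counting error only. Replicates of a group were not repeats of 1 library (chi-square over its degrees of freedom of 23.1 to 67.4 against counting noise), which does not tell separate animals from separate library preparations. A count of 0 was taken to allow 3 counts, or 0.0417 to 0.0904 CPM.

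The factors, the lists and the tests were chosen with earlier results of these data known, so patterns already seen there are not independent support. The rule for naming genes took all 8 factors, listed genes past the threshold, up to 4 of each list by mean CPM, and the 3 genes nearest to each factor; 1 gene of that rule is not reported here. Alternatives were RLE size factors, library totals, other expression filters, DESeq2 1.42.0, legacy off, a replicate block, thinned counts, a fit of each clone alone, no clone term, the mean of the within-clone responses, and leaving out each library. The procedure was tested on simulated counts.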

Additional observations from a re-analysis of the deposited data

Results flagged for a closer look

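In 4 of 16 sets of 4 libraries (8 factors, each in vehicle and after 4OHT), 1 library stood apart from the other 3, with its gap to the nearest of them, as a share of the whole range, above the 95% critical value of Dixon's test. That limit flags about 1 in 20 sets of independent values from 1 normal distribution, or 0.8 of 16. These sets are CPM that join groups and share libraries, so the 4 cannot be measured against that rate. T at 39.7 CPM in 4OHT clone 8 replicate 2 stood apart by 0.894 of the range of the 4OHT libraries. Mesp1 stood apart in both conditions, at 3.12 CPM in 4OHT clone 8 replicate 2 (0.964 of the range) and at 1.34 CPM in vehicle clone 8 replicate 1 (0.933). Evx1 at 4.4 CPM in vehicle clone 8 replicate 1 stood apart by 0.911 of the range of the vehicle libraries. The sets join both clones, and the 4 values come from only 2 libraries, both of clone 8.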

How the results depend on the processing

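The count of factors called, 0 in each comparison, moved mainly with the expression filter. Without it, 2 were called in clone 4 (Mixl1, Gsc), 1 in clone 8 (T) and 3 in the difference between clones (T, Mixl1, Mesp1). There were 2 over both clones (T, Mixl1) and 3 between the vehicle libraries (Mixl1, Mesp1, Gsc), where DESeq2 called 1 (Gsc). Of all 30973 genes tested without the filter, 728 were called in clone 4, 4263 in clone 8 and 2114 in the difference. The fitted values hardly moved: Mixl1 in clone 4 was at 1.90 with the filter and 1.92 without it. The calls of Mesp1 rest on clone 4 libraries at or under 3 counts, for which no fold change is given. Leaving out 1 library gave 0 to 1 in clone 8 and 0 to 1 in the difference.

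Counts of all genes called moved more. In clone 4 (7 genes) they were 728 without the filter, 78 with at least 10 counts in every library, 468 by DESeq2, 16 with legacy off, 14 in thinned counts, 220 in the fit of that clone alone and 0 with the replicate block, and 0 to 259 when 1 library was left out. In clone 8 (3041) the fit of that clone alone gave 0, and leaving out 1 library gave 0 to 3218. The difference (519) became 2114 without the filter, 1864 by DESeq2 and 0 to 1205 with 1 library left out. Over both clones (1 gene) the counts were 1337, 1053 by DESeq2, 1063 when the within-clone responses were averaged, and 0 with at least 10 counts in every library or with the replicate block; leaving out 1 library gave 0 to 1. Between the vehicle libraries (1534) they were 2901, 3064 by DESeq2 and 0 to 2491. With library totals, 66.2% of the clone 8 calls were higher against 48.2% with TMM, and 52.1% against 38.2% of those in the difference. DESeq2 left the adjusted p of 3908 genes missing in clone 4 and of 6394 over both clones.

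Of 605 log2 values of the factors under alternatives, 560 kept their direction and side of the threshold, 12 newly passed, 0 were lost and 33 turned. Of these, 3 did not come from leaving out a library: Mixl1 in clone 8 with library totals (0.074), and Mesp1 over both clones by DESeq2 (-1.55) and with the replicate block (-0.90). The others turned when 1 library was left out. In clone 4 the ranges were -0.54 to 0.30 for T, -0.15 to 0.72 for Evx1 and -0.98 to 1.38 for Cdx1. In clone 8 they were -1.15 to 0.58 for Mixl1, -2.55 to 2.21 for Mesp1, -0.25 to 0.33 for Gsc and -0.30 to 1.49 for Cdx1. In the difference they were -0.46 to 0.078 for Eomes, -0.30 to 0.76 for Evx1 and -0.97 to 1.67 for Cdx1. Over both clones they were -0.041 to 1.17 for T, -2.89 to 1.22 for Mesp1, -0.43 to 0.69 for Tbx6 and -0.22 to 0.75 for Cdx1. Between the vehicle libraries they were -0.57 to 1.07 for T, -0.99 to 0.093 for Tbx6 and -1.53 to 1.11 for Cdx1. Their cause was not tested. Fits in which a group had at most 3 counts of a factor gave no value.

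Libraries of the same replicate number deviated together by a correlation of 0.095 in clone 4 and -0.01 in clone 8, so the numbers were taken as names only; the block called 0 factors in every comparison. Where a library was left out, its partner was taken to vary like the other groups. Low counts limit Mesp1, Tbx6 and Cdx1. For Mesp1 the 4OHT clone 8 pools also differed, at 7 and 187 counts in libraries of 57951209 and 57435979 counts. With 2 pools per group, the SE of a log2 change within a clone was 0.19 for Eomes but 0.99 or more for Tbx6.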
